A study of Mus musculus with 4 samples.

Results

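Potassium channel genes were examined in isolated mouse pancreatic islets that had been treated with a glucokinase activator. The set held every gene whose name on the array began with Kcn, together with Abcc8 and Abcc9, and came to 97 genes and 140 probes of 26265 named genes and 39429 probes. Islets of 8-week-old C57BL/6 mice were kept for 24 h in RPMI1640 medium with 5.6 mM glucose, either with 30 µM of the activator, called GKA in the labels, or with the DMSO vehicle alone. Each group had 2 samples, numbered 1 and 2, and each sample was hybridised to 1 single-colour Agilent array. The labels give neither the sex of the mice nor how many mice or cultures a sample came from, and the spread behind each p-value is therefore that of these samples alone and may be technical.

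Potassium channels set the resting potential of the beta cell and end its action potentials. In the textbook account, glucose raises the ratio of ATP to ADP, which closes ATP-sensitive potassium (KATP) channels, depolarises the membrane, opens calcium channels and releases insulin. Glucokinase is the enzyme that sets the rate of glucose use in this chain, and an activator of it acts upstream of KATP closure. Voltage-gated and calcium-activated potassium channels then repolarise the cell, while tandem-pore channels carry leak currents.

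Signals are given as log2 of the processed spot intensity relative to the 75th percentile of the same array, an intensity of 751 and 755 with vehicle and of 557 and 598 with GKA. Well above background were 59.7% to 63.5% of the probes. The vehicle arrays lay at positions 1 and 2 of the slide and the GKA arrays at positions 3 and 4, so that position and treatment cannot be told apart. All 12 marker genes of beta cells were measured, Ins1 and Ins2 among them. In whole islets, fewer cells of a type and less RNA per cell cannot be told apart. The median difference between replicates was 0.19 among the vehicle arrays and 0.18 among the GKA arrays for the potassium channel genes measured, against 0.15 and 0.14 for all genes.

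Of the 97 genes, 65 had a probe that both arrays of a group, or of both groups, placed well above background, and were tested. Of the other 32, 28 had no probe well above background on any array. In limma, 7 genes were higher with GKA and 8 were lower at an adjusted p under 0.05, or 23.1% of those tested, against 17.1% of all 17178 genes (9.11% higher and 8.01% lower). The fitted change was at least 2-fold in 6 of them (5.59% of all genes), among them Kcng3, for which the background in the GKA group leaves a bound of 1.59-fold. The groups did not overlap in 41 of the 65, or 63.1%, against 65.9% of all genes, a share near the background. The median log2 fold change was -0.04 for the potassium channel genes and -0.01 for all genes. Directions are relative to the 75th percentile of each array. Left unscaled, the fold changes of all genes had a median of -0.40, with 5 potassium channel genes higher and 28 lower. Scaled to the spike-in probes, they had a median of -0.56, with 4 potassium channel genes higher and 32 lower. With normexp background correction 19 were higher and 5 lower after scaling to the 75th percentile, and 10 higher and 6 lower after quantile normalization. Without the filter on dim probes 3 genes passed, Kcnf1, Kcnh4 and Kcnj12.

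The 15 that passed lay apart in the plot of the changed genes by array, with both GKA arrays on 1 side of both vehicle arrays. With 2 arrays per group, selection by the threshold itself favours such a separation. Kcnf1, Kcnh4, Kcnk10, Kcnn3, Kcnh1, Kcnd3 and Kcnmb4 rose. Kcnj12, Kcng3, Kcnj10, Kcnq1, Kcnh2, Kcnh8, Kcnj11 and Kcnmb2 fell. With 1 array left out, the log2 fold change of Kcnh4 ran from 1.505 to 1.81 and that of Kcnj12 from -2.04 to -1.81. For Kcnf1 the range was 1.88 to 2.05, and for Kcng3 it was -1.504 to -1.25. Kcnf1 and Kcng3 were each kept through the group in which they were high, so that the filter on dim probes fixed their directions. For the set as a whole, 9 genes passed without vehicle replicate 1, 15 without vehicle replicate 2, and 6 each without GKA replicate 1 or GKA replicate 2. The adjusted p of 4 of the 15 lay above 0.04, and 11 further genes lay between the threshold and 0.1. Among the risers, Kcnd3, Kcnmb4, Kcnh1 and Kcnn3 did not pass with spike-in scaling, nor Kcnd3 and Kcnmb4 without scaling. With normexp, Kcng3 and Kcnj10 passed after neither normalization, Kcnh8 not with the 75th percentile, and Kcnd3, Kcnmb4 and Kcnk10 not after quantile normalization. With the replicate number as a block, Kcnd3, Kcnmb4, Kcnmb2 and Kcnh2 did not pass.

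**Figure D1:**
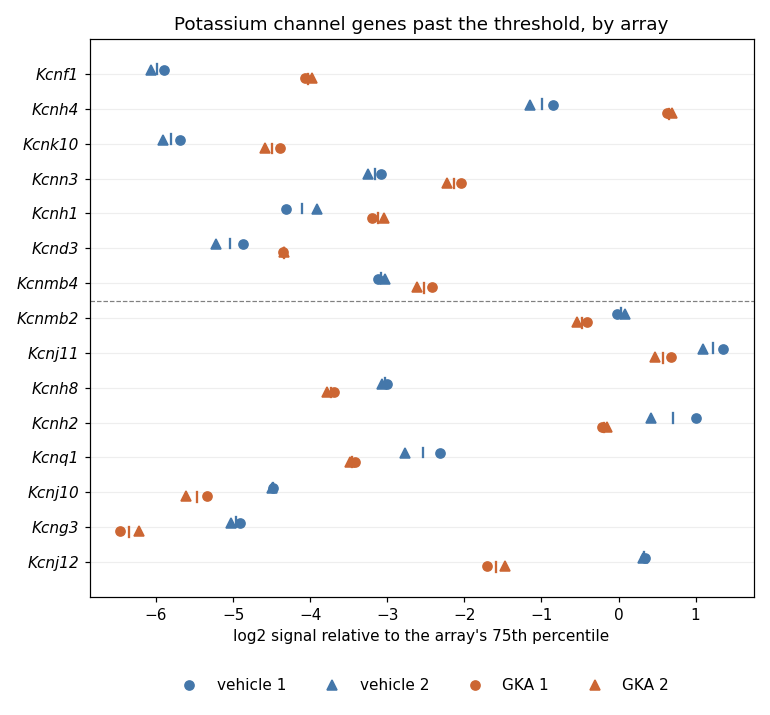
Log2 signal relative to the 75th percentile of each array (horizontal axis) of the 15 potassium channel genes past the threshold, with circles for replicate 1 and triangles for replicate 2, vehicle in blue and GKA in orange, and short vertical lines at the group means. The 7 genes above the dashed line have both GKA arrays to the right of both vehicle arrays, and the 8 below it have them to the left, with the gap widest for Kcnf1 and Kcnj12. Levels are not comparable between genes.

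**Figure D2:**
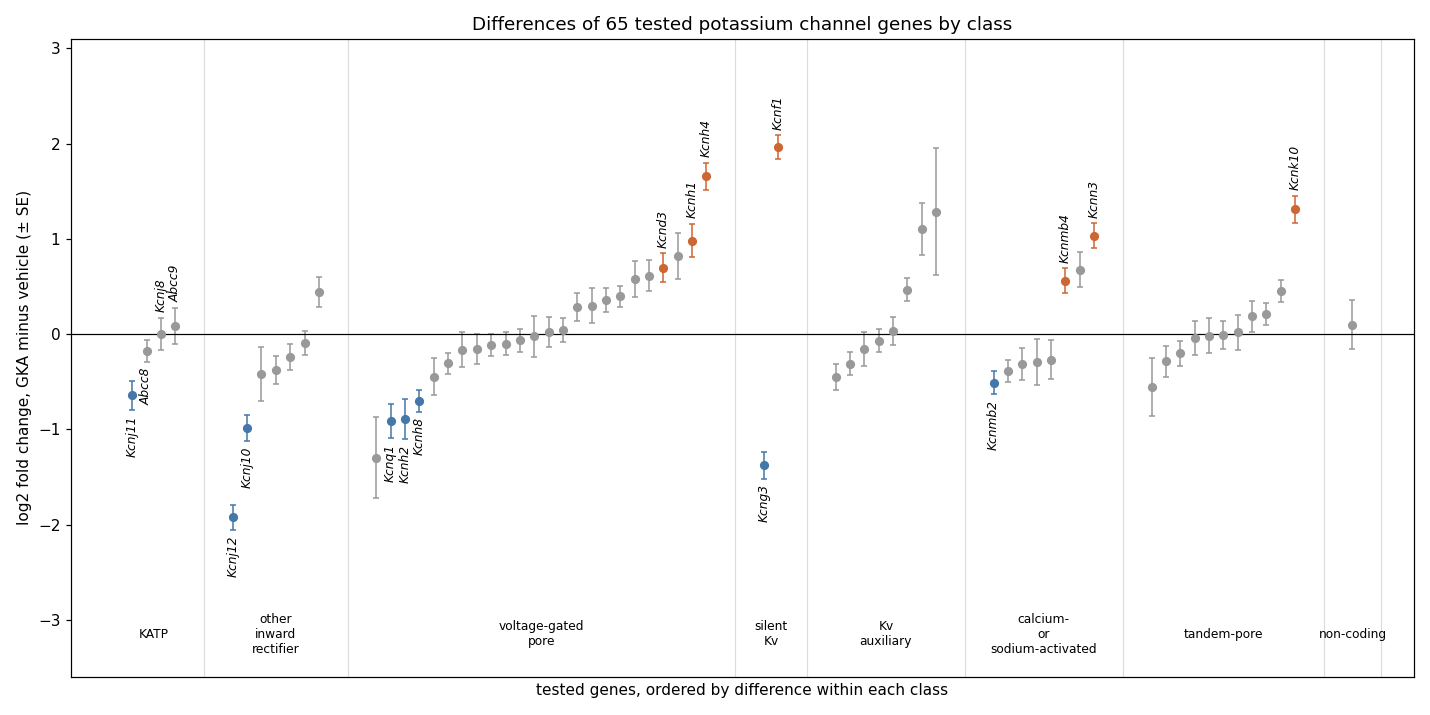
Log2 fold change of GKA minus vehicle (vertical axis, ± SE from limma, 2 arrays per group) for the 65 tested genes, ordered within each class, with genes that rose in orange, genes that fell in blue and the others in grey. Higher and lower genes stand side by side in the voltage-gated and calcium-activated classes, and 10 of the 11 tandem-pore genes lie between -0.55 and 0.46. The names of the genes past the threshold and of the KATP genes are printed.

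Among the genes of KATP channels, the pore subunit of the beta-cell channel was lower and its partner was not called in the reported fit. Kcnj11, which encodes that pore, stood at 1.36 and 1.09 with vehicle and at 0.69 and 0.48 with GKA. Both GKA arrays were below both vehicle arrays, and Kcnj11 fell by 0.64 on the log2 scale (± 0.15 SE, 1.56-fold, adjusted p = 0.0447 in limma). Its other probe fell by 0.67 (adjusted p = 0.0378 at probe level), from -1.17 and -1.32 to -1.77 and -2.07. Kcnj11 did not pass without vehicle replicate 1 (adjusted p = 0.143), GKA replicate 1 (0.107) or GKA replicate 2 (0.200).

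Abcc8, the sulfonylurea receptor that surrounds this pore, stood at 7.25 and 7.17 with vehicle and at 7.06 and 7.01 with GKA. Its log2 fold change was -0.17 ± 0.11 (adjusted p = 0.322) and -0.12 on its other probe (adjusted p = 0.510 at probe level). The arrays of the groups thus lay close together without overlapping. Over the 15 alternatives the log2 fold change of Abcc8 ran from -0.72 to -0.14. Abcc8 passed as lower in 2 of them, without scaling and with spike-in scaling. Whether the difference of Kcnj11 was larger than that of Abcc8 was not tested. The probes of these genes are 6.79 kb apart on chromosome 7 (Kcnj11 at chr7:53353119-53353178, build mm9).

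Kcnj8 and Abcc9 encode the pore and the receptor of the KATP channels of smooth muscle and pericytes, and their probes lie 23.4 kb apart on chromosome 6. The log2 fold change of Kcnj8 was 0.003 ± 0.17 (adjusted p = 0.992), with vehicle at -3.74 and -3.50 and GKA at -3.78 and -3.45. For Abcc9 it was 0.08 ± 0.19 (adjusted p = 0.780), with vehicle at -3.02 and -2.97 and GKA at -3.16 and -2.66. The groups overlapped in both genes, and both turned negative when unscaled, when scaled to the spike-in probes or when GKA replicate 2 was left out, Kcnj8 also with median scaling (-0.05) and without vehicle replicate 1 (-0.11).

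The other inward rectifiers held the largest fall of the set. Of 13 genes 7 were tested, of which 2 fell, none rose (a count of 0) and 5 did not pass, with a median of -0.37. Over all genes tested 8.01% fell and 9.11% rose, and no class was tested against these shares. Kcnj12, a strong inward rectifier, stood at 0.34 and 0.31 with vehicle and at -1.71 and -1.48 with GKA. Its replicates lay close together in both groups, and it fell by 1.92 on the log2 scale (± 0.13 SE, 3.79-fold, adjusted p = 0.0037). The probe lies at chr11:60884556-60884615 (mm9). Kcnj12 passed under each of the 15 alternatives fitted, with log2 fold changes from -2.47 to -1.61.

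Kcnj10, an inward rectifier best known from glia, stood at -4.48 and -4.49 with vehicle and at -5.34 and -5.61 with GKA, where 1 of 2 arrays was well above background. Kcnj10 was kept through the vehicle group alone, so that the filter favoured a lower value with GKA. It fell by 0.99 (± 0.14 SE, adjusted p = 0.0143), lost its call when GKA replicate 2 was left out (adjusted p = 0.0839) and had a log2 fold change of 0.04 with normexp and the 75th percentile. Of the genes that did not pass, Kcnj4 stood at -0.37 ± 0.15 (adjusted p = 0.134). Kcnj2 was well above background on both vehicle arrays and on neither GKA array, at least 1.00-fold lower with GKA (adjusted p = 0.251), so that no difference could be measured, and its log2 fold change of -0.24 became 0.21 with normexp and the 75th percentile. The G protein-gated channel genes Kcnj5 (-0.10) and Kcnj6 (0.44) did not pass.

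Among the genes that form voltage-gated pores, members of the ether-a-go-go group moved in opposite directions. Of 30 pore genes 24 were tested, of which 3 rose, 3 fell and 18 did not pass, with a median of -0.003. Across all genes 9.11% rose and 8.01% fell. Kcnh4 stood at -0.85 and -1.15 with vehicle and at 0.62 and 0.69 with GKA. It rose by 1.66 ± 0.14 (3.15-fold, adjusted p = 0.00556), with the GKA arrays close together and far above both vehicle arrays. Kcnh4 passed under each of the 15 alternatives, with log2 fold changes from 1.11 to 1.81. Its probe lies at chr11:100601716-100601775 (mm9).

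Kcnh1, the founding ether-a-go-go channel, stood at -4.31 and -3.91 with vehicle and at -3.20 and -3.05 with GKA. It rose by 0.98 ± 0.17 (adjusted p = 0.0237), but did not pass without vehicle replicate 1 (adjusted p = 0.0544), GKA replicate 1 (0.0820) or GKA replicate 2 (0.126). Kcnh2, the hERG channel that repolarises cardiac muscle and is also found in beta cells, stood at 1.00 and 0.41 with vehicle and at -0.22 and -0.15 with GKA. It fell by 0.89 (± 0.21 SE, adjusted p = 0.0452). The vehicle arrays of Kcnh2 differed by 0.59, and it did not pass without vehicle replicate 1 (-0.60, adjusted p = 0.0839), GKA replicate 1 (0.152) or GKA replicate 2 (0.165).

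Kcnh8, of the same subgroup as Kcnh4, stood at -3.01 and -3.06 with vehicle and at -3.69 and -3.78 with GKA. It fell by 0.70 (± 0.11 SE, adjusted p = 0.0203) and did not pass without vehicle replicate 1 (0.0677), GKA replicate 1 (0.0823) or GKA replicate 2 (0.119). Kcnh3 (-0.31, adjusted p = 0.114) and Kcnh6 (0.02, adjusted p = 0.942) did not pass. The probes of Kcnh6 had opposite signs, with -0.62 on the other probe (adjusted p = 0.0716 at probe level).

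Kcnq1, a slow delayed rectifier with a part in cardiac and epithelial potassium currents, stood at -2.31 and -2.77 with vehicle and at -3.42 and -3.48 with GKA. It fell by 0.91 (± 0.18 SE, adjusted p = 0.0303). Without vehicle replicate 1 the value was -0.68 (adjusted p = 0.0634), and Kcnq1 did not pass without GKA replicate 1 (0.109) or GKA replicate 2 (0.144). Kcnq1ot1, the non-coding antisense RNA of the Kcnq1 locus and no channel, stood at 0.10 ± 0.25 (adjusted p = 0.809) with overlapping groups. Its second probe stood at 1.13, with the GKA arrays at -3.95 and -5.29 (adjusted p = 0.121 at probe level).

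Kcnd3, which carries a transient A-type current, stood at -4.87 and -5.22 with vehicle and at -4.35 and -4.34 with GKA. It rose by 0.70 ± 0.15 (adjusted p = 0.0391), with 0.52 without vehicle replicate 2 (adjusted p = 0.0876). Kcnd3 did not pass without GKA replicate 1 (0.133) or GKA replicate 2 (0.163), and stood at 0.31 without scaling (adjusted p = 0.147). Kcna4, an A-type channel gene, stood at 2.00 and 2.08 with vehicle and at 2.06 and 1.88 with GKA, a log2 fold change of -0.07 ± 0.12 (adjusted p = 0.733).

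Kcna1 was well above background on both vehicle arrays and on neither GKA array, where it stood at -6.82 and -5.50. It was kept through the vehicle group alone, so that the filter fixed its direction in the reported fit. The group means put Kcna1 at least 1.71-fold lower with GKA, but it did not pass in the reported fit (adjusted p = 0.0958). Kcna1 did pass as lower without scaling and with spike-in scaling. Its GKA arrays differed by 1.32, and without GKA replicate 2 its log2 fold change was -1.96. With normexp and the 75th percentile its log2 fold change was 0.14, in the other direction (adjusted p = 0.343). Its neighbours within about 103 kb on chromosome 6, Kcna5 (-0.17) and Kcna6 (0.40), did not pass, although the second probe of Kcna6 rose by 0.69 (adjusted p = 0.0442 at probe level, where 16.9% of all probes passed).

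Silent subunits form no channel alone and change the gating of other voltage-gated subunits when they join them. Of 10 such genes 2 were tested, each kept through the group in which it was high, so that the filter fixed their directions. On neither vehicle array was Kcnf1 well above background, at -5.90 and -6.07, and it stood at -4.06 and -3.98 with GKA. It was at least 3.75-fold higher (adjusted p = 0.00341), and its replicates lay close together in both groups. Kcng3 stood at -4.91 and -5.03 with vehicle and at -6.47 and -6.22 with GKA, where neither array was well above background, and was at least 1.59-fold lower (adjusted p = 0.00756). Kcng3 had a log2 fold change of 0.05 with normexp and the 75th percentile, where it did not pass.

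Auxiliary subunits of voltage-gated channels did not pass in any of 8 tested of 12, a count of 0 in each direction in limma, with a median of -0.02. Among all genes tested 17.1% passed, and the class was not tested against that share. Kcne3, which holds Kcnq1 channels open, was the nearest to the threshold and is named after its values were seen. It stood at -0.30 and 0.51 with vehicle and at 1.27 and 1.15 with GKA, a log2 fold change of 1.10 ± 0.28 (adjusted p = 0.0514). Its vehicle arrays differed by 0.82, more than those of any gene that passed. At probe level both probes of Kcne3 passed, at 1.10 (adjusted p = 0.0487) and 1.07 (adjusted p = 0.0326). Kcne4, from the same family, had a larger log2 fold change of 1.29, but its vehicle arrays stood at -6.76 and -4.64, with 1 of them well above background (adjusted p = 0.225). Kcnip1, a calcium-binding partner of A-type channels, stood at -0.31 ± 0.12 (adjusted p = 0.136), and Kcnip3 at 0.03 ± 0.14 (adjusted p = 0.886).

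Among calcium-activated channels, the gene of a small-conductance channel rose and the auxiliary subunits of the large-conductance (BK) channel diverged. Of 12 genes of the calcium- or sodium-activated class 8 were tested, of which 2 rose, 1 fell and 5 did not pass, with a median of -0.28. The share of all genes past the threshold was 17.1%. Genes, Kcnu1 among them, were placed in this class by name and not by what opens the channel. Kcnn3, a small-conductance channel opened by calcium through calmodulin, stood at -3.09 and -3.24 with vehicle and at -2.04 and -2.22 with GKA. It rose by 1.03 ± 0.13 (2.04-fold, adjusted p = 0.0125) and by 0.90 on its other probe (adjusted p = 0.0152 at probe level). Kcnn3 did not pass without GKA replicate 1 (0.0640) or GKA replicate 2 (0.0656). The related Kcnn2 (-0.39, adjusted p = 0.0755) and Kcnn4 (-0.27, adjusted p = 0.388) did not pass.

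Kcnma1, the BK pore, depended on the probe. The probe that stood for the gene was at -0.82 and -0.97 with vehicle and at -0.45 and 0.01 with GKA, a log2 fold change of 0.68 ± 0.18 (adjusted p = 0.0604). The other probes rose by 1.14 (adjusted p = 0.00943) and 0.90 (adjusted p = 0.0118) at probe level. On each of the 3 probes both GKA arrays lay above both vehicle arrays. With the mean of its probes Kcnma1 rose by 0.91 (adjusted p = 0.0159). It passed under 4 of the 15 alternatives, with log2 fold changes from 0.13 to 0.91 over all 15. It did not pass without scaling, with spike-in scaling or with the replicate number as a block. With 1 array left out its log2 fold change ran from 0.45 to 0.90. It is named after its values were seen.

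Of the BK auxiliary subunits, Kcnmb4, a beta subunit typical of neurons, stood at -3.13 and -3.04 with vehicle and at -2.42 and -2.62 with GKA, and rose by 0.56 ± 0.13 (adjusted p = 0.0420). Kcnmb2, a beta subunit that inactivates the channel, stood at -0.02 and 0.09 with vehicle and at -0.41 and -0.54 with GKA, and fell by 0.51 (± 0.12 SE, adjusted p = 0.0459). Neither passed with any 1 array left out, where the adjusted p ran from 0.0794 to 0.165 for Kcnmb4 and from 0.103 to 0.207 for Kcnmb2, nor with the mean of its probes. Their other probes stood at 0.49 (adjusted p = 0.101) and -0.31 (adjusted p = 0.124) at probe level. Kcnmb4 lay at 0.02 with spike-in scaling. Kcnu1, known from sperm, stood at -0.31 ± 0.17 (adjusted p = 0.237).

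**Figure D3:**
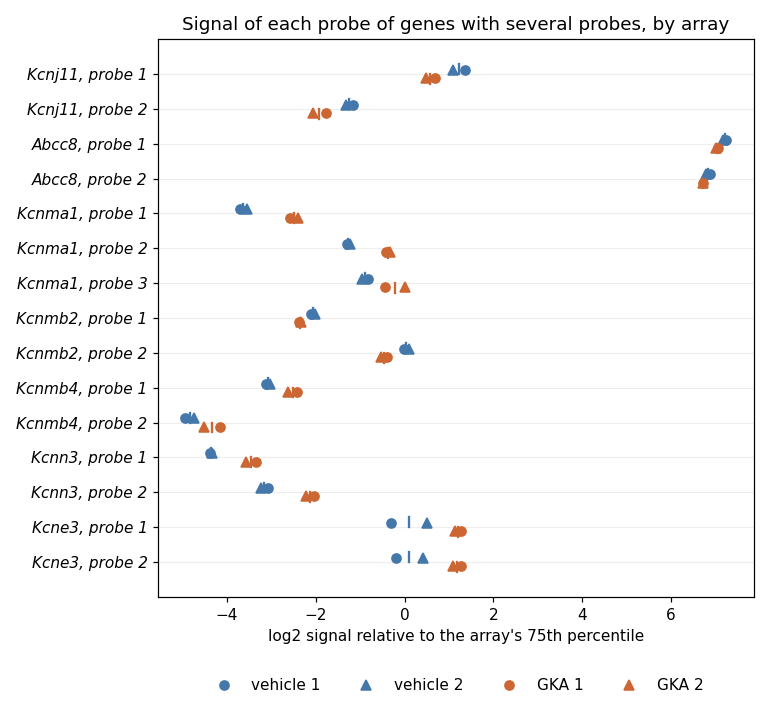
Log2 signal relative to the 75th percentile of each array (horizontal axis) for every kept probe of 7 genes with several probes, with circles for replicate 1 and triangles for replicate 2, vehicle in blue, GKA in orange and vertical lines at the group means. Within each of these 7 genes the probes differ in level but share the side on which the GKA arrays lie, as for the 3 probes of Kcnma1 and both probes of Kcnj11. Of all 16 genes with several kept probes, Kcna7 and Kcnh6 (2 genes) had probes of opposite sign.

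Among tandem-pore channel genes 1 changed. Of 14 genes 11 were tested, of which 1 rose, none fell (a count of 0) and 10 did not pass, with a median of -0.01. For all genes the shares were 9.11% higher and 8.01% lower. Kcnk10, a leak channel opened by stretch and lipids, stood at -5.70 and -5.91 with vehicle and at -4.39 and -4.59 with GKA. Neither vehicle array was well above background, so the filter fixed the direction of Kcnk10, kept through the GKA group alone. It was 2.48-fold higher (log2 fold change 1.31 ± 0.14, adjusted p = 0.00883), a fitted value and not a lower bound. The log2 fold change of Kcnk10 ran from 1.21 to 1.42 with 1 array left out. Over the alternatives that measured it, the lowest value was 0.24. Kcnk10 did not pass after normexp with quantile normalization or without the filter on dim probes. Kcnk1 stood at 0.48 and 0.44 with vehicle and at 0.86 and 0.97 with GKA, a log2 fold change of 0.46 ± 0.12 (adjusted p = 0.0528), but -0.09 with spike-in scaling. Kcnk16, a leak channel abundant in islets, stood at 0.56 and 1.04 with vehicle and at -0.15 and 0.64 with GKA. Its groups overlapped, and GKA differed by -0.55 ± 0.30 on the log2 scale (adjusted p = 0.248).

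The promoters of Kcnh4 and Kcnj12, which had the largest rise and fall among genes well above background on all 4 arrays, and of Kcnh1 are shown because they differ in the letters found there. RefSeq windows (build GRCm38.p6) were matched for 70 of the 97 genes and for 13 of the 15 that passed, all but Kcnj11 and Kcnq1. The 250 bases before each start were searched on both strands for the cAMP response element TGACGTCA, its part TGACG (which the full element contains), the E-box CACGTG, the NR4A response element AAAGGTCA and the AP-1 site TGANTCA. These were held by 1.55%, 17.8%, 6.02%, 1.34% and 6.75% of all 32851 windows. Among the 70 genes, which have 95 windows, 0, 16, 5, 1 and 4 held them in any of their windows, in the same order. The shares are by window and these counts by gene, so they are not in the same unit. Of the changed genes, Kcnh4 held an E-box whose first base is 87 bases before the start, Kcnh1 an NR4A element at 223 bases, and Kcng3 the part TGACG at 208 bases. Capitals mark these letters. A match is a description, not a site.
Kcnh4 (chr11:100759779-100760028, minus strand): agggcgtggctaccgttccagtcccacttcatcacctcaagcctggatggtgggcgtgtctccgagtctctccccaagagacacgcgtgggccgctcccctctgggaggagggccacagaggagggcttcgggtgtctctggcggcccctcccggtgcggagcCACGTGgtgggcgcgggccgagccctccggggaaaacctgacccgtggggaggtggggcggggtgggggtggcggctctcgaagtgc
Kcnh1 (chr1:192190527-192190776, plus strand): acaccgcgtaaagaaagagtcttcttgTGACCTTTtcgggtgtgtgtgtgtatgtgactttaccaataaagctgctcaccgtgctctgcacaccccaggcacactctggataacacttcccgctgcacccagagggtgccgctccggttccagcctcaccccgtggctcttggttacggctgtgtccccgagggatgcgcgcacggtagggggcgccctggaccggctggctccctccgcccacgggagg
Kcnj12 (chr11:61065554-61065803, plus strand): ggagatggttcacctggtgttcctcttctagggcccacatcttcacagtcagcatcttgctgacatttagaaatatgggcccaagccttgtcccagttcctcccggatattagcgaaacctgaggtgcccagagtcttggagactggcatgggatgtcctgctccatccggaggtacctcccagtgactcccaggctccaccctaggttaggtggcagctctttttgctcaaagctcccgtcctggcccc

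Other genes that move potassium or act with its channels were taken as a pair of lists. At the same threshold 17.1% of all genes passed, and neither list was tested against that share. Of 39 genes of other potassium transport 33 were tested, of which 7 rose, 4 fell and 22 did not pass, with a median of 0.02. Fxyd5 (1.32 ± 0.14, adjusted p = 0.00871) and Fxyd7 (1.22 ± 0.17, adjusted p = 0.0148, well above background on 1 of 2 vehicle arrays), which modulate the sodium pump, rose, as did Atp4a (1.13 ± 0.26, adjusted p = 0.0418), the gastric proton pump subunit. Fxyd7 was kept through the GKA group alone, so that the filter favoured its rise. Slc12a7, a potassium-chloride cotransporter, fell by 1.27 (± 0.15 SE, adjusted p = 0.0102), from 1.58 and 1.62 to 0.17 and 0.48. Fxyd6 fell by 0.83 (± 0.11 SE, adjusted p = 0.0138). Lrrc55, an auxiliary gamma subunit of BK channels, was well above background on both vehicle arrays, at -5.75 and -5.61, and on neither GKA array. It counts among the 4 that fell (adjusted p = 0.00462), but it was kept through the vehicle group alone, so that the filter fixed its direction. Its level was too near the background for a fold.

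Of 32 regulators of potassium channels 29 were tested, of which 3 rose, 3 fell and 23 did not pass, with a median of -0.03. Prkar1a, the regulatory subunit of protein kinase A, rose by 1.36 ± 0.13 (adjusted p = 0.00623), Gng3, a G protein gamma subunit, by 0.91 ± 0.17 (adjusted p = 0.0259), and Oxsr1, a kinase of cation-chloride cotransporters, by 0.59 ± 0.11 (adjusted p = 0.0286). Pip5k1a, which makes the membrane lipid that keeps inward rectifiers open, fell by 1.17 (± 0.15 SE, adjusted p = 0.0122), from 7.63 and 7.67 to 6.64 and 6.32. Ank2, the ankyrin that anchors KATP channels among others, fell by 0.76 (± 0.18 SE, adjusted p = 0.0427), and Nedd4l, a ubiquitin ligase of ion channels, by 0.64 (± 0.12 SE, adjusted p = 0.0251).

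Markers of cell types were counted as well, beside a share of 17.1% of all genes past the threshold (9.11% higher and 8.01% lower). No list was tested against that share. Of 14 leukocyte markers measured, 5 were lower and 1 higher, with a summed linear signal (in units of the 75th percentile) of 13.4 to 14.3 with vehicle and 11.97 to 13.3 with GKA. Of 12 markers of pericytes, smooth muscle and fibroblasts, 1 was lower, with sums of 7.85 to 9.94 and 6.43 to 6.90, beside Kcnj8 and Abcc9, which did not pass. Of 7 acinar markers measured of 15, 2 were higher, with sums of 5.003 to 5.45 and 11.4 to 12.04, Bhlha15 rising by 1.37. Of 11 neural and Schwann cell markers 2 were higher and 1 lower, with sums of 15.8 to 16.3 and 16.9 to 17.4, and of 12 markers of other islet endocrine cells 3 were higher, with sums of 1266 to 1271 and 1520 to 1624. Duct markers had 1 higher and 2 lower of 10, with sums of 118 to 129 and 125 to 137, and endothelial markers 2 higher and 1 lower of 14, with sums of 42.7 to 43.5 and 42.1 to 47.2. Of the beta-cell markers 3 were higher and 1 lower, with sums of 1157 to 1167 and 1424 to 1456. The part of these markers in the differences of the potassium channel genes was not tested.

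**Figure D4:**
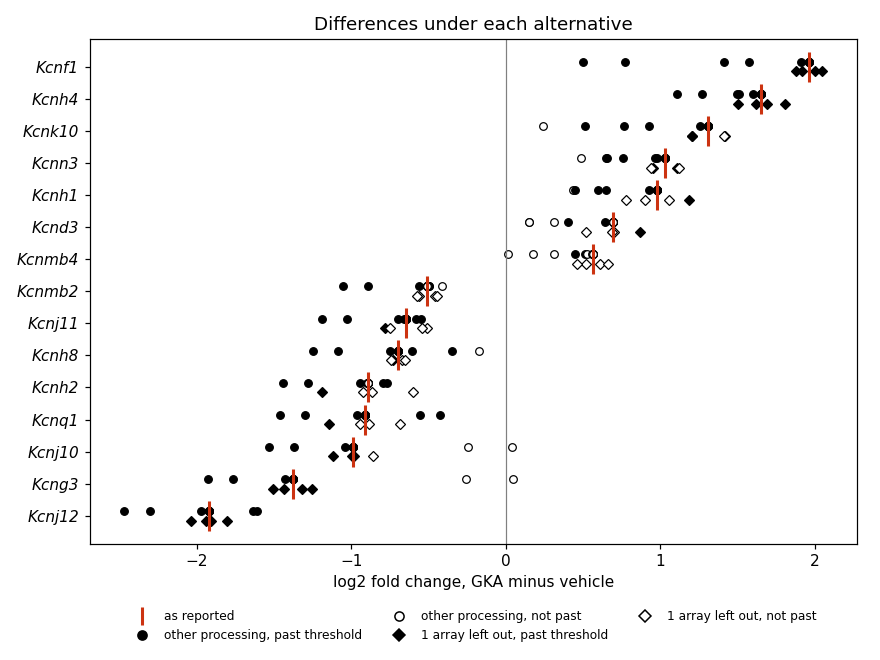
Log2 fold change of GKA minus vehicle (horizontal axis) of the 15 genes past the threshold, as reported (red bar) and under each alternative, with circles for other processing and diamonds for 1 array left out, filled where the adjusted p was under 0.05. Kcnf1, Kcnh4 and Kcnj12 have filled symbols throughout, and Kcng3 and Kcnj10 have 1 open circle each just above 0.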

How the data were processed

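Total RNA of 4 islet samples was hybridised to 1-colour Agilent arrays. Intensities are background-subtracted and detrended values made with Agilent Feature Extraction 10.7.3.1 per the file headers (9.1 per the submitters' processing notes), left unscaled between arrays. A further table that the authors deposited has 1 intensity per group and 1 ratio of GKA over control per probe, used here for gene names and mm9 probe positions. No spot was saturated, a count of 0. The 0 or 1 marks of each spot, other than intensities, were set by Feature Extraction per the file headers.

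Control spots and outlier-marked spots were left out, replicate spots were averaged as log2 values, and the 75th percentile over probes was subtracted. Kept were probes that both arrays of a group placed well above background, and the probe with the highest mean signal stood for its gene. Groups were compared with limma 3.58.1 in R 4.3.3 (two-sided, Benjamini-Hochberg over all 17178 genes, residual df 2, prior df 3.33); "at probe level" means the same fit on 22139 probes. The smallest two-sided p of an exact permutation test is 0.333 here. Where no array of a group was well above background, "at least N-fold" sets the brighter group's mean against, per array, the dim gene's own value or the lowest value of any probe well above background, whichever is higher. The fit was tested on simulated data. The members and lists were chosen with earlier results of these data known. Named were all members that passed, the KATP genes, the 2 members with the highest signal in each class, members measured in 1 group only, and the most changed list genes; others are examples chosen after their values were seen. A gene that the rule names is not reported here. The number of arrays limits precision. The alternatives tried were other scalings, background corrections, filters, probe rules, a replicate block and each array left out.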

Additional observations from a re-analysis of the deposited data

How the results depend on the processing

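The 15 potassium channel genes past the threshold became 33 without scaling, 36 with spike-in scaling, 24 with normexp and the 75th percentile, and 3 without the filter on dim probes, and ran from 6 to 15 with 1 array left out. Over all genes, 2941 became 8404 without scaling, 8058 with spike-in scaling, 5045 with normexp and the 75th percentile, 223 without the filter on dim probes and 1916 with the replicate number as a block, and ran from 384 to 2442 with 1 array left out. With the block 11 of the 15 passed. Deviations of samples with the same number correlated with r = 0.08 across genes, so the number is not treated as a pairing. Among the named genes, Kcng3 (0.045) and Kcnj10 (0.039) turned sign with normexp and the 75th percentile, as did Kcna1 (0.14) and Kcnj2 (0.21), which had not passed. In all, 13 of the 15 kept their sign under every alternative that measured them, and 3 (Kcnf1, Kcnh4 and Kcnj12) passed in each. Normexp was run on the median spot signal, chosen after seeing the data, and was not run on the mean signal. Kcnf1, Kcng3 and Kcnk10 lay near or below the background in 1 group, so their size is limited by it.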
